A study of Homo sapiens with 12 samples.

Results

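The 9 genes described here encode receptors for chemokines, the small secreted proteins that guide white blood cells through tissue. They were chosen by name, as CCR2, CCR4, CCR6, CCR7, CCR8, CCR9, CXCR3, CXCR4 and CXCR5, and all 9 were matched among the 62069 gene identifiers measured. RNA was measured by sequencing of poly-A selected RNA in CUTLL1, an established line of human T-cell acute lymphoblastic leukaemia in which a rearrangement with the T-cell receptor beta locus leaves NOTCH1 constitutively active. The libraries carried 4 labels with 3 libraries each, namely DMSO 12 h, GSI 12 h, DMSO 48 h and GSI 48 h. DMSO was the solvent alone, and GSI was Compound E at 1 µM, an inhibitor of gamma-secretase, the protease that frees the active intracellular part of NOTCH1. All groups shared the line, its medium with fetal bovine serum and the seeding density, and were harvested 12 or 48 h after the start of treatment. A single cell line limits what the groups can stand for, and the labels do not state that libraries of a group came from separate cultures. The p-values therefore measure the spread between these libraries, which may be technical.

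Chemokine receptors are seven-pass membrane proteins that signal through inhibitory G proteins to phosphoinositide 3-kinase, phospholipase C and the actin cytoskeleton, and that are silenced by receptor kinases, arrestins and RGS proteins. Developing T cells use CCR9, CCR7 and CXCR4 to enter and move within the thymus, whose stroma makes the matching ligands CCL25, CCL19, CCL21 and CXCL12. In T-cell leukaemia CCR7 is known for entry into the central nervous system, and CXCR4 for retention in niches that secrete CXCL12. CCR2, CCR4, CCR6, CCR8 and CXCR3 are better known from activated, memory and regulatory T cells, and CXCR5 from B cells and follicular helper T cells.

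Levels are given as normalised read counts, the deposited values, which put each gene's reads on a common scale by 1 factor per library. Fold changes are differences of log2(value + 1) with their standard error (SE), which understates the change of genes at low values. A gene counts as called where limma gave it an adjusted p (Benjamini-Hochberg) below 0.05, in a fit to all 12 libraries adjusted over the 19281 genes that reached a value of 10 in at least 3 libraries. Of the 9 receptors 8 passed that filter, and CXCR5 did not.

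The treatment labels were checked on NRARP, a feedback inhibitor of Notch and direct NOTCH1 target. Its mean was 42352 in the libraries labelled DMSO 12 h, 21930 in GSI 12 h, 3030 in DMSO 48 h and 1701 in GSI 48 h. DTX1, another direct target, followed the same order at 84822, 61031, 11600.5 and 8245. Both genes were lower under GSI at each time, but the libraries labelled DMSO 48 h lay far below those labelled GSI 12 h, so the time label separated NOTCH1 target RNA more than the treatment label did. Whether the labels GSI 12 h and DMSO 48 h are as intended was not tested. If they were exchanged, each comparison given here as one of times would be one of treatments, and the reverse. Groups are therefore named by their labels throughout, and a direction over time or treatment is a direction between labels. Recovered depth ranged from 73939612 to 160702764 reads per library. Summed T-lineage markers (10 of 10 kept) lay between 203294 and 296126 in every library, whereas erythroid markers reached at most 2.69 and stromal and epithelial markers at most 10.3. Summed B-lineage markers ranged from 673 to 3057, myeloid ones from 201 to 543 and NK ones from 215 to 479, with MS4A1, CD33, NCR1 and EPCAM listed at 0 in all 12 libraries. A hypoxia response list stood apart in the libraries labelled GSI, with a median log2 level relative to all libraries of 1.504, 0.19 and 1.73 in the GSI 12 h libraries numbered 1 to 3 and 1.07, -0.25 and 0.50 in those of GSI 48 h. In the 6 libraries labelled DMSO it lay between -0.91 and -0.56, so the GSI libraries numbered 2 were the nearest to DMSO at each time.

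The promoter stretches of CCR2, CCR4 and CCR9 are shown first, because these receptors had the 3 largest called rises between the time labels in GSI, and CXCR4 is set beside them as the most abundant receptor RNA. They are the 250 bases before each annotated start in RefSeq (build GRCh38.p14, not the hg19 build of the authors), which held 12 starts for 7 of the 9 receptors. CCR7 and CCR8 were not among them. Each stretch was searched on both strands for the core motifs of RBPJ, the DNA-binding partner of NOTCH1 (TGGGAA), of GATA factors (AGATAA) and of E proteins (CAGCTG), and matches are in capitals. For CXCR4 only the bases around its RBPJ matches are given, the first of which lies on the reverse strand and so reads TTCCCA.
CCR2 (chr3:46353861-46354110, plus strand): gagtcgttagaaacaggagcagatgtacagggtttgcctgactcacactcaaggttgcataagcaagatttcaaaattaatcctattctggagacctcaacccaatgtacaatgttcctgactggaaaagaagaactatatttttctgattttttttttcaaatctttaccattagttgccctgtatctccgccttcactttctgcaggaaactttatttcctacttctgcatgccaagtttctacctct
CCR4 (chr3:32951394-32951643, plus strand): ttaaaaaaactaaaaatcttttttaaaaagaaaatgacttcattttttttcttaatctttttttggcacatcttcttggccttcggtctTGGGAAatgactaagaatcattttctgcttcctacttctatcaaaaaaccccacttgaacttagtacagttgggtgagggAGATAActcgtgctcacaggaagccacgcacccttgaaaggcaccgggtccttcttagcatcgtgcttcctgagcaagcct
CCR9 start 1 (chr3:45886293-45886542, plus strand): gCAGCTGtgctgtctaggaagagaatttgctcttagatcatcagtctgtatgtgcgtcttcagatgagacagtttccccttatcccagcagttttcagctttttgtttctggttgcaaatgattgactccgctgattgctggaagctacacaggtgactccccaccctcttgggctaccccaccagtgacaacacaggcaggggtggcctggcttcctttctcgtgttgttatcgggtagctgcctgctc
CCR9 start 2 (chr3:45893967-45894216, plus strand): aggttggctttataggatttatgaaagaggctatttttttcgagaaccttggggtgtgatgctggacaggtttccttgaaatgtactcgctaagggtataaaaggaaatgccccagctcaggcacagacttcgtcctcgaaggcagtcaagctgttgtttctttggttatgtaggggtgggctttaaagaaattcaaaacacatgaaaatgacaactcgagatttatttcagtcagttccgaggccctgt
CXCR4 start 1 (chr2:136118287-136118316, minus strand): ggtcccctgggcTTCCCAagccgcgcacct
CXCR4 start 3 (chr2:136116439-136116468, minus strand): tttaggcaggcgTGGGAAaattaagttttt
The RBPJ letters occurred in 2 of the 7 receptors, CCR4 (161 bases before its start) and CXCR4 (155 and 221 bases before starts 1 and 3), and in 20.8% of all 35116 promoters of this length. A receptor counts once over all its starts, whereas the promoter shares given here count each stretch singly, so the units are unlike. CCR4 also held the GATA letters, present in 9.17% of promoters, and CCR9 start 1 the E protein letters, present in 14.0%. CCR2 held none of the 3 motifs. No receptor promoter held the hypoxia factor core ACGTG, which 18.5% of promoters carry, or the FOXO motif TGTTTAC, carried by 2.98%. The RUNX motif TGTGGT, carried by 11.0%, matched in CCR6 alone of the 7, and the E protein letters also matched in CXCR3. A match is a description of letters and not of binding. The receptor with the most abundant RNA and a match, CXCR4, and the receptor with the largest called treatment difference and a match, CCR4, moved differently, as the values below show.

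CXCR4, CCR9 and CCR7, the thymic homing receptors, were the 3 most abundant receptor RNAs per kilobase of exon in every group. Per kilobase, the CXCR4 level was 19641 ± 839 (SD, n = 3) in the libraries labelled DMSO 12 h, against 4958 ± 659 for CCR9 and 818 ± 87.3 for CCR7. By the mean over all 12 libraries, CXCR4 exceeded 99.3% and CCR9 98.0% of the 18344 kept genes with a known length, and CCR7 exceeded 77.2%. The ranges of these 3 receptors did not overlap in the groups labelled DMSO 12 h, GSI 12 h and DMSO 48 h. In the libraries labelled GSI 48 h the per-kilobase level of CCR9 rose to 16325 ± 3893, and its highest library, at 20811, overlapped the lowest CXCR4 library, at 20518.

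The order of the other 6 receptors changed with the time label. In the libraries labelled DMSO 12 h the order per kilobase was CCR8, CCR6, CXCR3, CCR2, CCR4 and CXCR5, where the ranges of CCR8, CCR6 and CXCR3 overlapped as neighbours and so did those of CCR2, CCR4 and CXCR5. The order in GSI 12 h was CCR8, CCR6, CXCR3, CCR4, CCR2 and CXCR5, with overlapping neighbours from CXCR3 downwards. In DMSO 48 h CCR2 headed the order at 48.8 ± 4.32 per kilobase, its range overlapping that of CXCR3, which in turn overlapped CCR6, and CCR4, CCR8 and CXCR5 followed without overlap. In GSI 48 h CCR2 at 96.1 ± 14.1 and CCR4 at 91.1 ± 27.6 per kilobase overlapped each other and stood above CCR6, CXCR3 and CCR8, whose neighbouring ranges overlapped, with CXCR5 last. CCR2 and CCR4 thus moved from the places just above CXCR5, the last at 12 h, to the places behind CCR7 in the libraries labelled GSI 48 h.

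**Figure D1:**
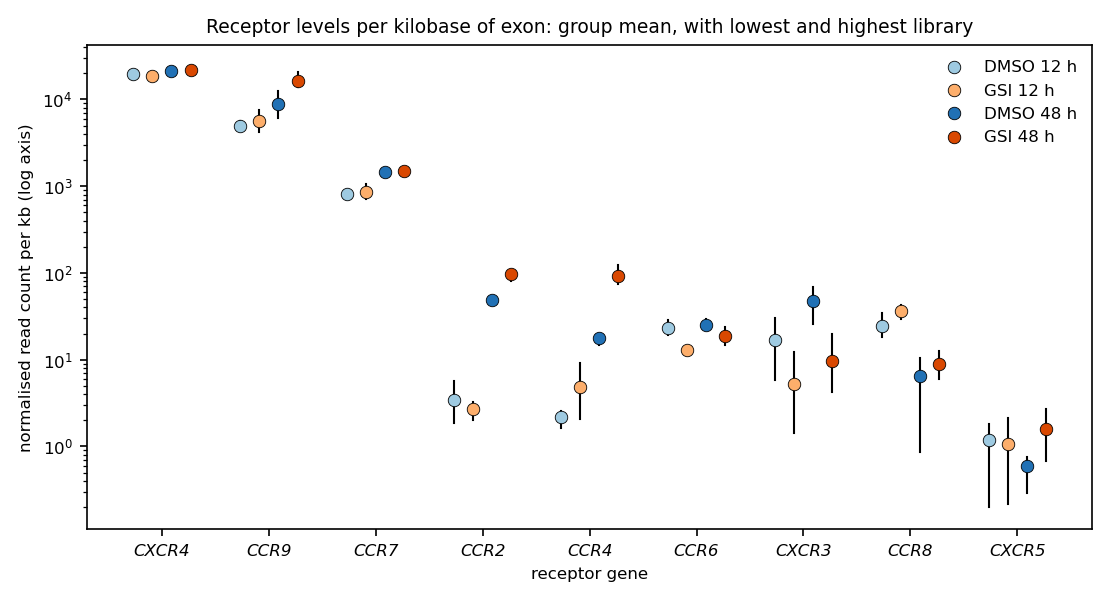
Normalised read count per kilobase of exon (log axis) of the 9 receptor genes in the 4 groups, with points for the mean of 3 libraries and bars from the lowest to the highest library. CXCR4, CCR9 and CCR7 stand above the rest in every group, and CCR2 and CCR4 rise from below 10 per kilobase at 12 h to above 90 in the libraries labelled GSI 48 h.

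CXCR4, the receptor for CXCL12, had almost the same level in every library. Its normalised read counts were 42202, 43065 and 45778 in the libraries labelled DMSO 12 h, 40983, 40671 and 44212 in GSI 12 h, 44407, 46826 and 49049 in DMSO 48 h, and 45632, 47426 and 51939 in GSI 48 h. The treatment groups overlapped at both times. The treatment difference was -0.06 ± 0.08 (SE) on the log2 scale at 12 h, with a 95% interval from -0.23 to 0.11, and 0.05 ± 0.08 at 48 h, with an interval from -0.12 to 0.21. The sign of the 12 h value turned under upper-quartile scaling, to 0.03. All 3 libraries labelled GSI 48 h were higher than the 3 labelled GSI 12 h, a log2 difference of 0.20 ± 0.08 that was not called (limma, adjusted p = 0.198, Benjamini-Hochberg). With the library numbers paired within treatment the same difference was called at an adjusted p of 0.00184, the lowest of a range up to 0.521 over 23 alternatives.

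CCR9, the receptor for CCL25 on thymocytes and gut-homing T cells, was higher at the later time label and highest in the libraries labelled GSI 48 h. Its normalised read counts were 12372, 15975 and 13433 in DMSO 12 h, 11816, 14998 and 21229 in GSI 12 h, 16977, 34864 and 23341 in DMSO 48 h, and 38831, 40286 and 58458 in GSI 48 h. The treatment groups overlapped at 12 h and did not at 48 h, where every GSI library lay above every DMSO library. Among the libraries labelled DMSO 48 h number 2 stood nearest to the GSI libraries, and number 3 was the highest of those labelled GSI 48 h.

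CCR7, the receptor for CCL19 and CCL21, rose with the time label under either treatment. The libraries labelled DMSO 12 h held 2292, 1863 and 2001 normalised reads and those of GSI 12 h 2041, 2691 and 1761. In DMSO 48 h the values were 3540, 3597 and 3726, and in GSI 48 h 3733, 3720 and 3853. All 6 libraries at 48 h lay above all 6 at 12 h, and the treatment groups overlapped at both times.

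CCR2, the receptor for CCL2 and related monocyte chemoattractants, went from near the detection floor at 12 h to higher counts in every 48 h library. Its normalised read counts were 21.2, 6.99 and 9.72 in the libraries labelled DMSO 12 h and 10.7, 7.59 and 12.1 in GSI 12 h. They were 194, 190 and 164 in DMSO 48 h and 391, 387 and 298 in GSI 48 h. The 12 h values rest on 6 to 24 recovered reads per library, and the 48 h groups did not overlap each other or any 12 h library. Per kilobase and by the mean over all 12 libraries, CCR2 exceeded only 27.4% and CCR4 24.0% of the 18344 kept genes with a known length.

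CCR4, the receptor for CCL17 and CCL22 on regulatory, type 2 helper and skin-homing T cells, followed a similar course with a wider gap between treatments. Its values were 7.96, 4.995 and 7.07 in DMSO 12 h and 10.7, 6.33 and 28.2 in GSI 12 h. At 48 h they were 45.2, 57.2 and 60.6 in the libraries labelled DMSO and 381, 232 and 233 in those labelled GSI. At 12 h the groups overlapped, with the library numbered 2 lowest among the 3 labelled GSI. At 48 h the lowest GSI library exceeded the highest DMSO library.

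CXCR3, the receptor for CXCL9, CXCL10 and CXCL11 on type 1 helper T cells, differed most between library numbers. Its values were 55.7, 11.0 and 27.4 in the libraries labelled DMSO 12 h, 3.89, 22.8 and 2.69 in GSI 12 h, 127, 48.1 and 94.3 in DMSO 48 h and 8.91, 37.1 and 7.98 in GSI 48 h. In both DMSO groups the library numbered 2 was the lowest, and in both GSI groups it was the highest. These are the GSI libraries in which the hypoxia response list was nearest to DMSO. The part of that difference in the CXCR3 result was not tested.

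CCR6, the receptor for CCL20 on type 17 helper T cells, was lower in the GSI libraries at 12 h. Its values were 92.9, 82.9 and 125 in DMSO 12 h, 59.3, 55.7 and 55.1 in GSI 12 h, 108, 95.5 and 127 in DMSO 48 h, and 63.6, 103 and 79.8 in GSI 48 h. The groups did not overlap at 12 h and overlapped at 48 h through the library labelled GSI 48 h 2.

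CCR8, the receptor for CCL1, was the only receptor of the 8 that was lower at 48 h in every library of both treatments. Its values were 26.5, 45.0 and 23.9 in DMSO 12 h, 38.9, 56.9 and 49.7 in GSI 12 h, 11.1, 13.6 and 1.12 in DMSO 48 h and 16.5, 10.4 and 7.98 in GSI 48 h. The lowest value rests on 1 recovered read, and the 48 h libraries on 1 to 21. CXCR5, the receptor for CXCL13, stayed between 0.885 and 12.0 in all 12 libraries, on 1 to 9 recovered reads each. Its exons overlap those of BCL9L on the opposite strand in GENCODE 29, and reads of the pair cannot be told apart where counting does not use strand.

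**Figure D2:**
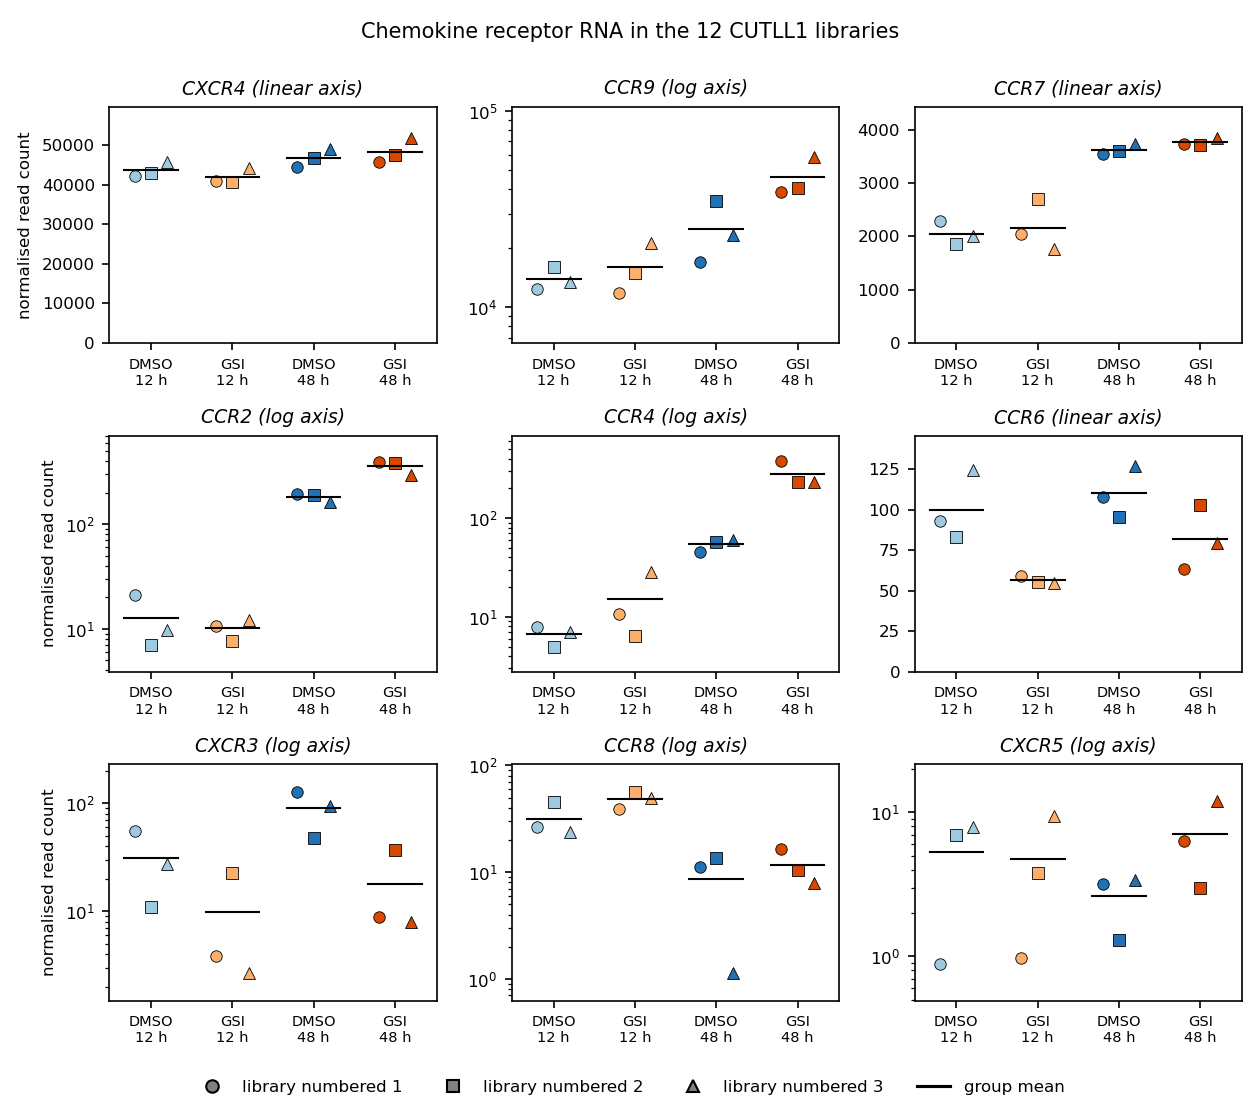
Normalised read count of each receptor in the 12 libraries, on a linear axis from 0 for CXCR4, CCR7 and CCR6 and on a log axis for the others, with symbols for the library number and bars for the mean of 3 libraries. CCR2 and CCR4 at 48 h lie above all their 12 h libraries, CXCR4 keeps to 40671 to 51939, and the GSI libraries numbered 2 (squares) are the highest GSI libraries for CXCR3.

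By its labels, the comparison of GSI and DMSO at 12 h asks which receptors differed early under gamma-secretase inhibition. CCR6 RNA was 1.73-fold lower in the GSI libraries, and no other receptor was called. The log2 difference of CCR6 was -0.79 ± 0.23 (SE, limma, adjusted p = 0.0268, Benjamini-Hochberg), lower in 3 of 3 libraries. Over all genes 21.5% were called in this comparison, 10.1% higher and 11.4% lower, so 1 called receptor of 8 was below the background share. CCR6 was also the only receptor whose groups did not overlap, against 36.3% of all genes without overlap and 19.3% without overlap and lower. In bulk samples fewer cells with CCR6 and less CCR6 RNA per cell cannot be told apart. Hypoxia response genes moved with the same labels, with 26 of 29 called higher in GSI at 12 h. Of 10 T-lineage markers 3 were called lower there, and their summed level was 213919 to 241759 in GSI 12 h against 248918 to 296126 in DMSO 12 h, without overlap. The part of either in the receptor results at 12 h, CXCR3 and CCR4 included, was not tested. The adjusted p of CCR6 ranged from 0.0107 to 0.0933 over 22 alternatives, and the call ended without any 1 of 4 libraries: DMSO 12 h 1 (0.0508), DMSO 12 h 3 (0.0933), GSI 12 h 1 (0.0702) or GSI 12 h 3 (0.0700). In GENCODE 29 a noncoding transcript on the same strand shares exon sequence with CCR6, and reads of the pair cannot be told apart there.

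At 12 h, CXCR3 had a log2 difference of -1.83 ± 0.76 (adjusted p = 0.0986) and CCR4 one of 0.84 ± 0.42 (adjusted p = 0.161), neither called by limma. Without the library labelled GSI 12 h 2, CXCR3 was called at -2.66 (adjusted p = 0.0152) and CCR4 at 1.29 (adjusted p = 0.0264). Calls over all genes rose from 4144 to 5662 in that fit. Over 22 alternatives the adjusted p ranged from 0.00726 to 0.298 for CXCR3 and from 0.0264 to 0.590 for CCR4. The remaining receptors differed by 0.63 ± 0.59 (CCR8), 0.17 ± 0.25 (CCR9), 0.06 ± 0.13 (CCR7) and -0.18 ± 0.33 (CCR2), each within the spread between libraries. The interval of CCR7, a receptor reported downstream of NOTCH1 in other T-cell leukaemias, ran from -0.23 to 0.34.

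At 48 h, CCR4 was 5.01-fold and CCR9 1.88-fold higher in the libraries labelled GSI. Their log2 differences were 2.32 ± 0.42 (limma, adjusted p = 0.0102) and 0.91 ± 0.25 (adjusted p = 0.0408), each higher in 3 of 3 libraries. Background shares were 9.68% of all genes called, 4.33% higher and 5.35% lower. The groups of 4 receptors did not overlap, CCR2, CCR4 and CCR9 with GSI higher and CXCR3 with GSI lower, against 35.4% of all genes without overlap, 16.9% higher and 18.5% lower. CCR2 was 1.95-fold higher by a log2 difference of 0.97 ± 0.33 (adjusted p = 0.0745), and CXCR3 5.61-fold lower by -2.49 ± 0.76 (adjusted p = 0.0544), neither of them called. In a limma fit with replicate terms shared by all 4 groups, CCR2 (adjusted p = 0.0322) and CXCR3 (adjusted p = 0.0425) were called as well. That makes 4 receptors against 27.3% of all genes. For CXCR3 the SE was larger in that fit, 0.80 against 0.76, and its unadjusted p was 0.0107 against 0.00586. Calls over all genes rose from 1866 to 5261, so a larger p passed the adjustment.

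CCR4 stayed called in 20 of 22 alternatives, with adjusted p-values from 6.29e-10 to 0.0641. It was not called without DMSO 48 h 1, at a difference of 2.20 (adjusted p = 0.0502), or without GSI 48 h 1, at 2.09 (adjusted p = 0.0641), fits in which the calls over all genes fell from 1866 to 204 and 136. CCR9 stayed called in 16 of 22. It was not called without DMSO 48 h 1 (0.124), DMSO 48 h 3 (0.0885), GSI 48 h 1 (0.109), GSI 48 h 3 (0.164) or DMSO 12 h 3 (0.0521), at differences between 0.66 and 1.02, nor with no filter on low values (0.0597), and its adjusted p ranged down to 0.00816. CXCR3 without GSI 48 h 2 had a difference of -3.16 (adjusted p = 0.0205), within a range from 0.00492 to 0.203. The adjusted p of CCR2 ranged from 0.000262 to 0.229, the former by DESeq2 on recovered reads. Hypoxia response genes were also higher in the libraries labelled GSI at 48 h, with 11 of 29 called higher and 0 lower. The part of that difference in the receptor results was not tested.

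CXCR4 and CCR7 gave the narrowest intervals at 48 h. CCR7 differed by 0.06 ± 0.13, with an interval from -0.23 to 0.34, and CXCR4 by the value given above. CCR6 differed by -0.43 ± 0.23 (limma, adjusted p = 0.214) and CCR8 by 0.75 ± 0.59 (adjusted p = 0.409), in groups that overlapped. Relative to the deposited scaling, upper-quartile scaling raised GSI over DMSO by 0.0879 at 12 h and 0.0886 at 48 h on the log2 scale. It moved the calls over all genes from 1943 higher and 2201 lower to 2536 and 1585 at 12 h, and from 834 and 1032 to 1220 and 682 at 48 h.

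**Figure D3:**
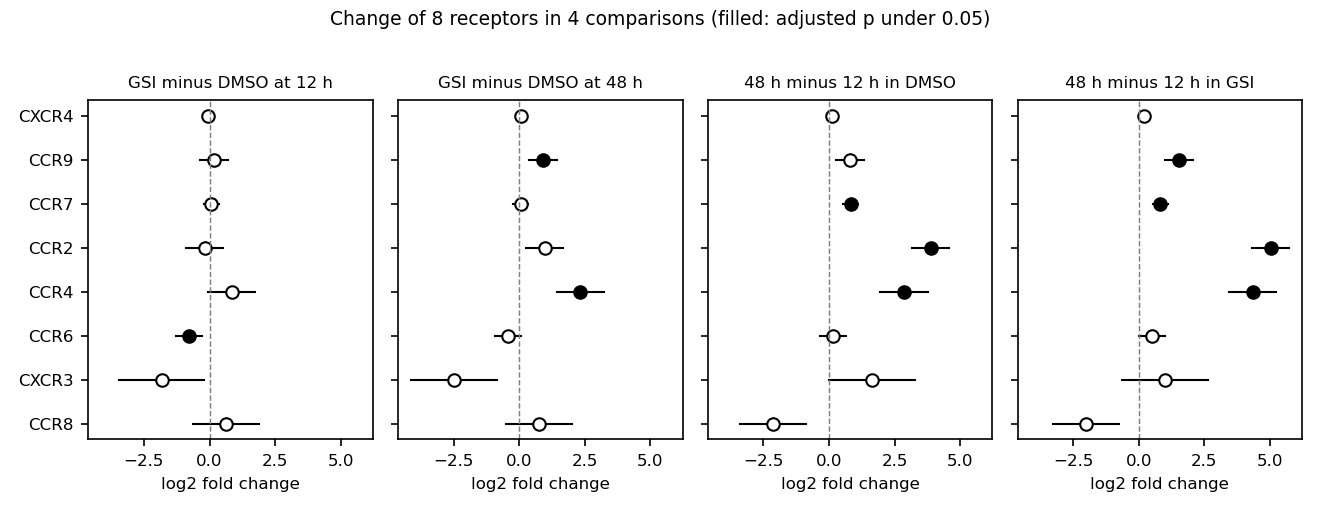
Log2 fold change of the 8 receptors above the low-value filter in 4 comparisons between labelled groups of 3 libraries, with 95% intervals from limma and filled points for an adjusted p under 0.05. CCR6 at 12 h and CCR4 and CCR9 at 48 h are filled between treatments, and CCR2, CCR4 and CCR7 are filled in both comparisons over time.

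Between the time labels within DMSO, CCR2 rose 14.7-fold, CCR4 7.25-fold and CCR7 1.77-fold. The log2 differences were 3.88 ± 0.33 (limma, adjusted p = 2.97e-05), 2.86 ± 0.42 (adjusted p = 0.00163) and 0.82 ± 0.13 (adjusted p = 0.00306), each higher in 3 of 3 libraries. These 3 calls compare with 4.53% of all genes called, 2.03% higher and 2.51% lower. All 3 were called in all 23 alternatives, with adjusted p-values up to 0.00169 for CCR2, 0.0106 for CCR4 and 0.0211 for CCR7. CCR8 had a difference of -2.13 ± 0.59 (adjusted p = 0.0580) and CCR9 one of 0.79 ± 0.25 (adjusted p = 0.102), neither called. Both belonged to the 5 receptors whose groups did not overlap, against 24.3% of all genes without overlap, 11.2% higher and 13.1% lower.

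The libraries of one number deviated together over time within a treatment, and with that pairing 3 more receptors were called in DMSO. They were CCR9 (adjusted p = 0.000129), CXCR3 at 1.65 (adjusted p = 0.000542) and CCR8 (adjusted p = 0.00279), which makes 6 receptors against 29.2% of all genes called in the same fit. CXCR3 was higher at 48 h in 3 of 3 DMSO pairs, by 1.17, 2.03 and 1.75. Without pairing its groups overlapped and its adjusted p was 0.281.

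Between the time labels within GSI, CCR2 rose 32.6-fold, CCR4 20.3-fold, CCR9 2.90-fold and CCR7 1.77-fold. The log2 differences were 5.03 ± 0.33 (limma, adjusted p = 1.89e-06), 4.34 ± 0.42 (adjusted p = 5.35e-05), 1.53 ± 0.25 (adjusted p = 0.00319) and 0.82 ± 0.13 (adjusted p = 0.00279). All 4 were higher in 3 of 3 libraries and were called in all 23 alternatives, against a background of 3.98% called, 1.62% higher and 2.37% lower. The groups of 7 receptors did not overlap, against 19.9% of all genes, 9.94% higher and 9.91% lower. CCR8 had a difference of -2.01 ± 0.59 (adjusted p = 0.0817), with 3 of 3 libraries lower. It was called by edgeR (adjusted p = 0.0330) and DESeq2 (adjusted p = 0.00255), within a range of 0.00255 to 0.313, and without DMSO 48 h 3, the library with 1 read, at 0.00517. With the numbers paired within treatment all 8 receptors above the filter were called, against 28.8% of all genes. The added ones were CCR6 at 0.50 (adjusted p = 0.0374), CXCR3 at 1.00 (adjusted p = 0.0123), CXCR4 and CCR8 (adjusted p = 0.00434).

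The NOTCH1 target list moved with the same labels, with 11 of 16 called lower between the DMSO groups and 12 of 16 between the GSI groups. Of all genes 2.51% and 2.37% were called lower in the same comparisons. Against these counts, 7 of 16 were called lower between treatments at 12 h and 3 of 16 at 48 h. The median log2 difference of the list was -1.72 in DMSO and -1.40 in GSI over time. Between treatments it was -0.49 at 12 h and -0.35 at 48 h. CCR2, CCR4 and CCR7 were called higher in both comparisons over time and CCR9 in GSI, whereas CCR8 was lower in both without a call. The part of NOTCH1 target RNA in the receptor results was not tested. Time in culture and the state of NOTCH1 signalling cannot be told apart between these labels.

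Whether the treatment effect itself differed between 12 and 48 h was tested as the difference of the 2 effects. Limma called 0 receptors and 0 genes of any kind, and before adjustment 875 genes had p below 0.05. By edgeR 0 genes were called, and by DESeq2 62. The differences of effects were 1.48 ± 0.59 for CCR4, 1.14 ± 0.46 for CCR2 and 0.74 ± 0.36 for CCR9. With the numbers paired within treatment CCR9 was called, at 0.74 ± 0.14 (adjusted p = 0.0111), where 6.1% of all genes were called, and over 22 alternatives its adjusted p ranged from 0.0111 to 1.00. CCR4 (adjusted p = 0.108) and CCR2 (adjusted p = 0.0961) were not called in that fit. The 2 treatment comparisons share no libraries, but each shares libraries with the comparisons over time.

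CCR2, CCR4, CCR8 and CCR9 lie on chromosome 3, and the genes beside them were examined over the same comparisons. Beside CCR2, CCR1, a receptor of inflammatory chemokines, was called in 1 of the 4 comparisons between groups, GSI over time, at 2.22 ± 0.51 (adjusted p = 0.0286), with a mean of at most 14.9. CCRL2 differed by 0.65 in DMSO over time (adjusted p = 0.203) and -0.15 in GSI, neither called. How reads that fit more than 1 gene were counted is not given in the sources used here, so the values of CCR2 are uncertain to that extent.

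Beside CCR9, CXCR6 rose by 1.01 ± 0.23 in DMSO over time (limma, adjusted p = 0.0250) and by 1.02 ± 0.23 in GSI (adjusted p = 0.0256). The genes between and around them did not, as FYCO1 differed by -0.30 in DMSO (adjusted p = 0.0838) and -0.01 in GSI, and LZTFL1 by -0.20 and -0.26, none of them called. LZTFL1 overlaps CCR9 on the opposite strand without shared exons. Beside CCR4, CNOT10 and GLB1 differed by -0.07 and 0.05 in DMSO over time and by -0.14 and -0.02 in GSI, also not called. Beside CCR8, CX3CR1, the fractalkine receptor, fell by 1.17 ± 0.18 in DMSO (adjusted p = 0.00232) and 0.81 ± 0.18 in GSI (adjusted p = 0.0217). On the other side SLC25A38 differed by -0.21 in DMSO over time and 0.03 in GSI, neither called. RPSA, the gene after it, differed by -0.26 in DMSO, not called, and by -0.43 in GSI (limma, adjusted p = 0.0499).

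Among the 14 other chemokine receptors, 10 passed the filter. Over time in DMSO 2 were called higher, among them CXCR6, and 2 lower (CX3CR1 and ACKR3), and in GSI 3 were called higher, among them CXCR6 and CCR1, and the same 2 lower. Of all genes 4.53% were called in DMSO and 3.98% in GSI. ACKR3, a scavenging receptor that binds CXCL12, fell from 809 ± 95.4 to 217 ± 38.3 (SD, n = 3) in DMSO, by 1.90 ± 0.26 (limma, adjusted p = 0.00128), and in GSI by 2.09 ± 0.26 (adjusted p = 0.00044). The median log2 difference of the 10 was 0.57 in DMSO and -0.02 in GSI, against -0.0019 and -0.0014 over all genes. Between treatments limma called 0 of the 10 at either time, and the same list held CXCR6 at an unadjusted p of 0.0322 at 12 h and 0.0331 at 48 h.

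Few ligand genes passed the filter. Of 27 chemokines listed 24 were matched, 5 passed the filter, and 10 were listed at 0 in all 12 libraries, among them CXCL12, CCL19 and CCL21, the ligands of CXCR4 and CCR7. CD99, a surface protein commonly found on T-cell leukaemias, was also listed at 0 in all 12, so a listed 0 here, for ligands or markers, does not show that a gene was silent. CXCL8 was the only one called, lower in the libraries labelled GSI 12 h than in DMSO 12 h by -1.29 ± 0.30 (limma, adjusted p = 0.0107), at means of 9.20 and 24.1. It was named after its value was seen. CCL25, the ligand of CCR9, averaged 5.06 to 7.93 per group and did not pass the filter.

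The genes that carry the signal inside the cell were expressed throughout, with 34 of 35 above the filter. At 12 h 5 of the 34 were called higher in GSI and 0 lower, beside 21.5% of all genes called and 10.1% called higher, so the list stood near the background. They were led by PLCB2, a phospholipase C isoform, at 0.82 ± 0.12 (limma, adjusted p = 0.0022), and PXN, the adhesion adaptor paxillin, at 0.61 ± 0.10 (adjusted p = 0.00298). At 48 h 2 of the 34 were called, beside 9.68% of all genes. PLCB2 was higher at 0.46 ± 0.12 (adjusted p = 0.0337), and WAS, an activator of actin nucleation, was lower at -0.27 ± 0.08 (adjusted p = 0.0474). The median of the list was 0.04 at 12 h and 0.0008 at 48 h, against 0.0006 and -0.0039 over all genes.

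Over time 5 of the 34 relay genes rose in DMSO and 0 fell, beside 4.53% of all genes called and 2.03% called higher. In GSI 4 rose and 1 fell, beside 3.98% of all genes called. PIK3CG, the catalytic kinase subunit activated by G protein beta-gamma subunits, rose from 6221 ± 453 to 8930 ± 619 (SD, n = 3) in DMSO, by 0.52 ± 0.08 (limma, adjusted p = 0.00253), and by 0.59 ± 0.08 in GSI (adjusted p = 0.00082). GNG2, a G protein gamma subunit, rose by 0.57 ± 0.09 in DMSO (adjusted p = 0.00229). TIAM1, an exchange factor for RAC, rose by 0.47 ± 0.09 in GSI (adjusted p = 0.00995), where PXN fell by 0.46 ± 0.10 (adjusted p = 0.0169). The list medians were 0.18 in DMSO and 0.03 in GSI.

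Of the 16 desensitisation genes, all above the filter, 2 were called at 12 h and 1 at 48 h between treatments, shares below the 21.5% and 9.68% of all genes. Over time 1 was called in DMSO, beside 4.53% of all genes, and 2 in GSI, beside 3.98%. GRK3, a kinase that phosphorylates active receptors, was higher in GSI at 12 h by 0.91 ± 0.14 (limma, adjusted p = 0.00288), and USP14, a deubiquitinase that acts on CXCR4, was lower by -0.35 ± 0.10 (adjusted p = 0.0274). RGS1, which shortens G protein signalling, averaged 984, 1304 and 1089 in the first 3 groups and 284 ± 13.6 (SD, n = 3) in the libraries labelled GSI 48 h. It was lower in GSI at 48 h by -1.91 ± 0.28 (adjusted p = 0.00463) and fell in GSI over time by 2.11 ± 0.28 (adjusted p = 0.000585), together with RGS16 by 2.03 ± 0.49 (adjusted p = 0.0350). RGS3 fell in DMSO over time by 0.49 ± 0.11 (adjusted p = 0.0242). The list medians were -0.01 and -0.21 between treatments at 12 and 48 h, 0.06 in DMSO over time and -0.24 in GSI.

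Adhesion and egress genes (21 of 24 above the filter) had 3 called higher in GSI at 12 h and 2 at 48 h, with 0 lower. Of all genes 21.5% were called at 12 h, 10.1% higher, and 9.68% at 48 h, so these counts stood near the background. Over time 2 were called in DMSO and 2 in GSI, beside 4.53% and 3.98% of all genes. ITGA6, the laminin-binding integrin alpha chain, was higher by 1.14 ± 0.19 at 12 h (limma, adjusted p = 0.00345) and 0.67 ± 0.19 at 48 h (adjusted p = 0.0474), and ITGA5, the fibronectin-binding one, by 0.73 ± 0.13 at 12 h (adjusted p = 0.00368). Over time ITGB1 rose in DMSO by 0.37 ± 0.10 (adjusted p = 0.0445), and ICAM2, a ligand of the integrin LFA-1, fell by 0.50 ± 0.11 in DMSO (adjusted p = 0.0217) and 0.59 ± 0.11 in GSI (adjusted p = 0.00784). The list medians lay between 0.05 and 0.17 in the 4 comparisons.

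**Figure D4:**
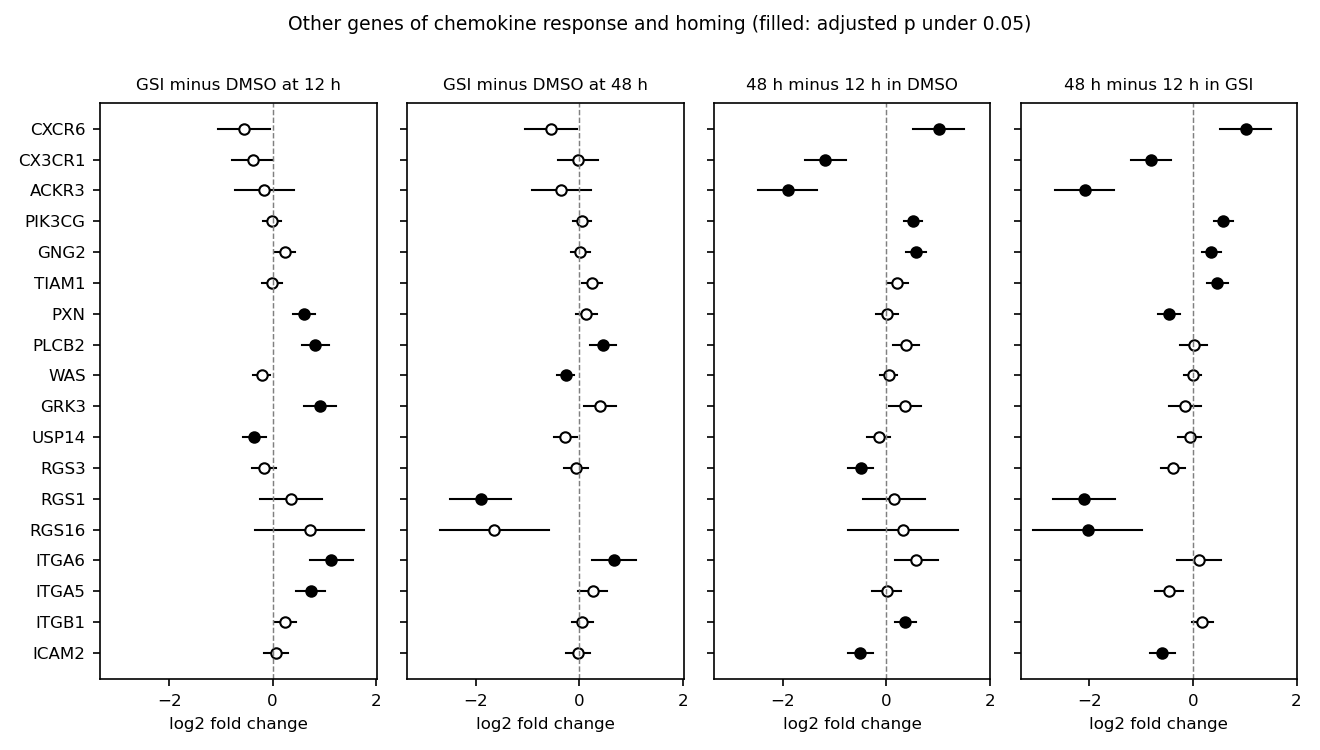
Log2 fold changes of 18 genes of chemokine response and homing in the same 4 comparisons, with 95% intervals from limma and filled points for an adjusted p under 0.05. CXCR6 rises and CX3CR1 and ACKR3 fall in both comparisons over time, and RGS1 is lower in the libraries labelled GSI 48 h in both comparisons that use them.

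The genes whose pattern over the 12 libraries was most like each receptor were ranked by Pearson's r of log2 values among 13049 named genes with a mean of at least 50. For CCR2 they were PIK3CG (r = 0.98), GATA3 (r = 0.98) and SH3BP2 (r = 0.97), and for CCR7 CDKN2D (r = 0.97), FAM117A (r = 0.97) and SH3BP2 (r = 0.96). GATA3, a transcription factor of T-cell development, averaged 9811, 9802, 16616 and 22213 in DMSO 12 h, GSI 12 h, DMSO 48 h and GSI 48 h. For CCR4 the list was CLUHP3 (r = 0.99), ZNF737 (r = 0.98) and TRAV8-5 (r = 0.97), and for CCR9 DNMT3A (r = 0.98), BST1 (r = 0.97) and a Y RNA (r = 0.97). CCR6 was followed by TNRC6A (r = 0.92), TRIP11 (r = 0.91) and FAM133B (r = 0.90), and CXCR4 by TCF12 (r = 0.93), STAU2 (r = 0.92) and UFL1 (r = 0.92). The 12 points share 4 groups and their size factors, so a high r mostly records the same order of groups. CCR8, CXCR3 and CXCR5 averaged under 50 and were not ranked.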

How the data were processed

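Poly-A RNA was sequenced in 12 CUTLL1 libraries. The build hg19 and the tools DESeq2, HTSeq 0.6.1, TopHat2 2.0.10 and FastQC 0.10.1 are named by the submitters' processing notes. Not given in the sources used here are their roles, the annotation and any use of strand. What the authors deposited is a signal per gene, read counts scaled by 1 factor per library, and 100% of values came out as whole reads within a tolerance of 0.01 (73939612 to 160702764 reads per library). This depth leaves a value of 10 resting on few reads.

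The 19281 genes that reached 10 in 3 or more libraries were tested with limma 3.58.1 (R 4.3.3, trended prior) on log2(value + 1), fitting group means without a replicate block. edgeR 4.0.16 on the recovered reads called 4201 and 1919 genes between treatments at 12 and 48 h, and 931 and 740 over time in DMSO and GSI. Alternatives were other pseudocounts (0.5 and 5), filters, scaling, DESeq2 1.42.0, replicate blocks and left-out libraries.

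Same-numbered libraries deviated together over time (r = 0.54 to 0.61 in DMSO, 0.40 to 0.54 in GSI), so numbers were taken as pairs within treatment. Between treatments at 48 h they did so slightly (0.10 to 0.16). The block fit given for that comparison used replicate terms shared by all 4 groups, the 12 h libraries included. At 12 h r was 0.07 to 0.27, a range around that at 48 h, but the DMSO library numbered 1 was closer to a GSI library of another number (0.14 against 0.10). The numbers were not taken as pairs for the treatment comparison there.

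Receptors and gene lists were chosen with earlier results of these data known. Beside the 9 receptors, the rule for named genes took from each pathway list up to 2 called genes per direction and comparison with the smallest p and a higher group mean of 50 or more, the 3 most similar genes per receptor, NRARP, DTX1, ADM and BNIP3. Other names were chosen after their values were seen. ADM and BNIP3, of the hypoxia list, were higher in GSI at 12 h by 6.59 and 4.00 (limma, adjusted p = 0.00112 and 0.00179). Symbols came from a table that named 39007 of 62069 identifiers, and CCL3, CCL4 and CCL5 had no match. Lengths and overlaps came from GENCODE 29, and the order of neighbouring genes from RefSeq. Some results that the rule for named genes would take are not reported here.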

Additional observations from a re-analysis of the deposited data

Results flagged for a closer look

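The change of the GSI effect on CCR9 between the time labels passed a test of the difference itself when library numbers were paired within treatment. GSI minus DMSO was 0.17 at 12 h and 0.91 at 48 h, a difference of 0.74 on the log2 scale (limma, adjusted p = 0.0111). Without pairing the same difference had a wider error, ± 0.36 (SE), and was not called.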

How the results depend on the processing

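Over the 8 receptors above the filter and all alternatives, 814 recomputed fold changes kept direction and side of the threshold. Of the others 41 became called, 13 lost their call and 23 changed sign. Receptors called at 12 h numbered 0 with only the compared groups fitted, 3 without both GSI libraries numbered 2, and 0 to 3 without 1 library. At 48 h they numbered 4 (pseudocount 5, DESeq2, only the compared groups, replicate block), 1 (no filter) and 0 to 3 without 1 library. Over time they numbered 5 (DESeq2, replicate block) and 6 (replicate block within treatment) in DMSO, with 3 to 4 without 1 library, and 8 (block within treatment) in GSI, with 4 to 5. For the difference of effects 1 was called with the block within treatment.

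All genes called at 12 h (4144) became 2607 with only the compared groups, 6951 with the replicate block and 1599 to 5662 without 1 library. At 48 h (1866) they became 1938 with pseudocount 5, 2467 with only the compared groups, 1075 without a filter and 3231 by DESeq2. They became 5261 with the block, 4042 without both GSI libraries numbered 2 and 119 to 3036 without 1. Over time in DMSO (874) they became 1568 by DESeq2, 2368 with the block, 5622 with the block within treatment and 353 to 1066. In GSI (768) they became 1257, 1941 and 5544 in those fits, 477 with only the compared groups, 427 without both numbered 2 and 443 to 737. For the difference (0) they became 62, 40 and 1177, 1 without both numbered 2, and 0 to 4. The block ended no receptor call. At 12 h it added no receptor call.

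Signs turned at 12 h for CCR2 (0.24 without DMSO 12 h 1, range -0.50 to 0.24 without 1 library), CCR7 (-0.0072 without DMSO 12 h 2, -0.11 without GSI 12 h 2 or both numbered 2, up to 0.20), CCR9 (-0.057 without GSI 12 h 3, up to 0.37) and CXCR4 (0.030, upper quartile). At 48 h they turned for CCR8 (-0.13 without DMSO 48 h 3, up to 1.26) and CXCR4 (-0.0062 without GSI 48 h 3, up to 0.087). Of the differences of effects, CCR7 (-0.0018) ranged from -0.14 to 0.17 without 1 library and 0.18 without both numbered 2. CCR8 reached -0.16 (pseudocount 5), -0.29 (edgeR), -0.27 (DESeq2) and -0.76 to 0.63 without 1 library, and CXCR3 -1.33 without GSI 48 h 2 to 0.17 without GSI 12 h 2. The cause was not tested.

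With 1 library left out, its group keeps 2, and the shared spread is used. The order per kilobase was the same with the longest coding transcript as the length. Depth limits CXCR5, CCR8 and the 12 h values of CCR2 and CCR4, which rest on few recovered reads.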
